A study of Mus musculus with 8 samples.

Results

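Bone morphogenetic protein (BMP) signalling was followed through 10 genes in RNA of mouse hearts that was labelled as cardiomyocyte and also held markers of other cells. They were Bmp2, Bmp4, Bmp7 and Bmp10, which encode ligands, Bmpr1a, Bmpr2 and Acvrl1, which encode receptors, the feedback inhibitor gene Smad6, the target gene Id1, and Tmem100. Members were the rows of the count table whose Ensembl identifier carries one of these symbols. The table holds 51826 genes, and all 10 members were present and passed the filter on low counts, as did 16623 genes in all. Tmem100 entered the set because of its difference between genotypes in adults. Its adult values are therefore described without a test. For the other 9 the rule uses gene symbols alone, but the set was drawn up with earlier results of these data known.

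The 4 groups were wild-type (WT) C57BL/6 mice and C57BL/6 mice of the genotype LncSync-/- (KO), homozygous for a mutant allele of a long noncoding RNA gene, each as embryos at stage e13.5 and as adults, with 2 libraries per group. Each library was made from 200 ng of heart total RNA, labelled as cardiomyocyte, and amplified with Smart-seq2, a full-length cDNA method for small inputs. The sources used here do not say how the allele was made, how the cells were isolated or how old the adults were. LncSync was not found in the table by name, so its loss in KO was not checked. Nothing says that replicates are separate animals, so the p-values measure only a spread between samples that may be technical.

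BMP ligands are secreted dimers. They bring together type I and type II serine/threonine kinase receptors, and the type I receptor then phosphorylates SMAD1, SMAD5 and SMAD9, which join SMAD4 and switch on genes such as Id1. SMAD6 is itself induced by the pathway and blocks the type I receptors. In the heart, Bmp2 marks the myocardium of the atrioventricular canal, and Bmp10 is made by trabecular myocardium in the embryo and by atrial muscle later. ACVRL1, also called ALK1, is the type I receptor through which BMP9 and BMP10 act on endothelial cells, and Tmem100 encodes a membrane protein of endothelium known as a target of that receptor.

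Total counts per library ranged from 16495084 to 20395600. Levels are given in CPM, counts set to an equal library total after TMM scaling, and 3 counts in 1 library correspond to 0.103 to 0.207 CPM; such floors cover counting error only. The 8 cardiomyocyte markers were all detected and summed to 12012 to 30575 CPM at e13.5 and 52524 to 73514 CPM in adults. Markers of other cells were present too: 11 endothelial genes summed to 701 to 2273 CPM, 8 fibroblast genes to 298 to 3331 CPM, and 6 erythroid genes to 19454 to 153725 CPM at e13.5. The highest erythroid sum was that of KO embryonic replicate 1, where haemoglobin genes held 15.5% of counts. Their share was 4.65% and 2.89% in WT embryos and 3.19% in KO embryonic replicate 2. The part of blood cells in the genotype differences at e13.5 was not tested. At e13.5 the first replicates of WT and KO resembled each other across genes (r = 0.960), as did the second replicates (r = 0.954), more than the replicates of a genotype did (0.913 in WT and 0.918 in KO). The share of mitochondrial genes was 3.21% to 4.36% in embryos and 22.6% to 28.8% in adults.

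Promoter sequence was at hand for 5 members (Bmp4, Bmp10, Bmpr1a, Bmpr2 and Smad6), from RefSeq on GRCm38.p6. The first sequence belongs to the member that was lost with age, the others to members that rose with age, and each is read 5′ to 3′ on the strand of its gene. For Bmp10 and Bmpr2 the 250 bases before the RefSeq start are shown, at chr6:87428744-87428993 on the plus strand and chr1:59764029-59764278 on the plus strand. The gene positions given below are those of GENCODE. The windows of Bmpr2 and Bmpr1a lie inside these GENCODE spans, because their RefSeq starts lie further into the gene. For Smad6 the 30 bases around the start are shown, at chr9:64022045-64022074 on the minus strand. Capitals mark AGATAA, the letters bound by GATA factors, in Bmp10; GGCGCC, the core of a GC-rich SMAD element, in Bmpr2; and GTCTAGAC, the palindromic SMAD element, in Smad6.
Bmp10: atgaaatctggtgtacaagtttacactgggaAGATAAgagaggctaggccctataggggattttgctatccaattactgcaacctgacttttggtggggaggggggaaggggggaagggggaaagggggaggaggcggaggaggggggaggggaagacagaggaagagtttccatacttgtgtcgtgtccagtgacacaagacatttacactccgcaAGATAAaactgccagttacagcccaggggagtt
Bmpr2: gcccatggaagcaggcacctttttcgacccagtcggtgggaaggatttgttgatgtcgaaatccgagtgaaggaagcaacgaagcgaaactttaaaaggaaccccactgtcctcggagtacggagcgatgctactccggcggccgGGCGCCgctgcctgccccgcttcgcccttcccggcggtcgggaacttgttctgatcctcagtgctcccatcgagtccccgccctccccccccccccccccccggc
Smad6: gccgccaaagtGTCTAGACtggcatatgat

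The Bmp10 window holds AGATAA at 219 and 33 bases before the start. Searched on both strands, AGATAA occurs in 11.2% of 32851 promoter windows of 300 bases. GGCGCC lies 105 bases before the RefSeq start of Bmpr2 and 198 bases before that of Bmpr1a, and occurs in 11.9% of the windows. GTCTAGAC straddles the Smad6 start, with 4 bases on either side, and occurs in 70 windows, or 0.213%. The Bmp4 window holds none of these letters, and TATAAA, found in 13.6% of all windows, is in none of the 5. The motifs in these windows do not overlap each other, and a match describes letters, not a bound site.

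Between e13.5 and the adult the ligand genes among the members fell, and the receptor genes among them and Smad6 rose, in WT and in KO alike. Of the 9 members tested between ages, 4 were higher and 4 lower in adults in each genotype, and only Id1 did not pass. Bmp10, among the lower ones, had no adult counts. It passed the filter through embryonic libraries alone and could be called only as lower. Among all genes tested, 38.9% changed in WT (17.8% higher, 21.1% lower) and 41.4% in KO (20.5% higher, 20.9% lower). The median log2 fold change of the 9 was 0.37 in WT and -0.33 in KO, the values of Id1, beside -0.26 and -0.15 over all genes. The libraries of the ages did not overlap for the 8 members that passed in each genotype, as for 75.9% of all genes in WT and 72.7% in KO. In these bulk samples fewer cells of a type and less RNA per cell cannot be told apart. Leaving out single libraries turned no direction of these 8 but cost calls. In WT, 1 of the 4 rises was called without embryonic replicate 1, without adult replicate 1 or without adult replicate 2, Smad6 in each case. In KO, 2 were called without KO embryonic replicate 1, without either WT adult library or without either KO adult library.

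**Figure D1:**
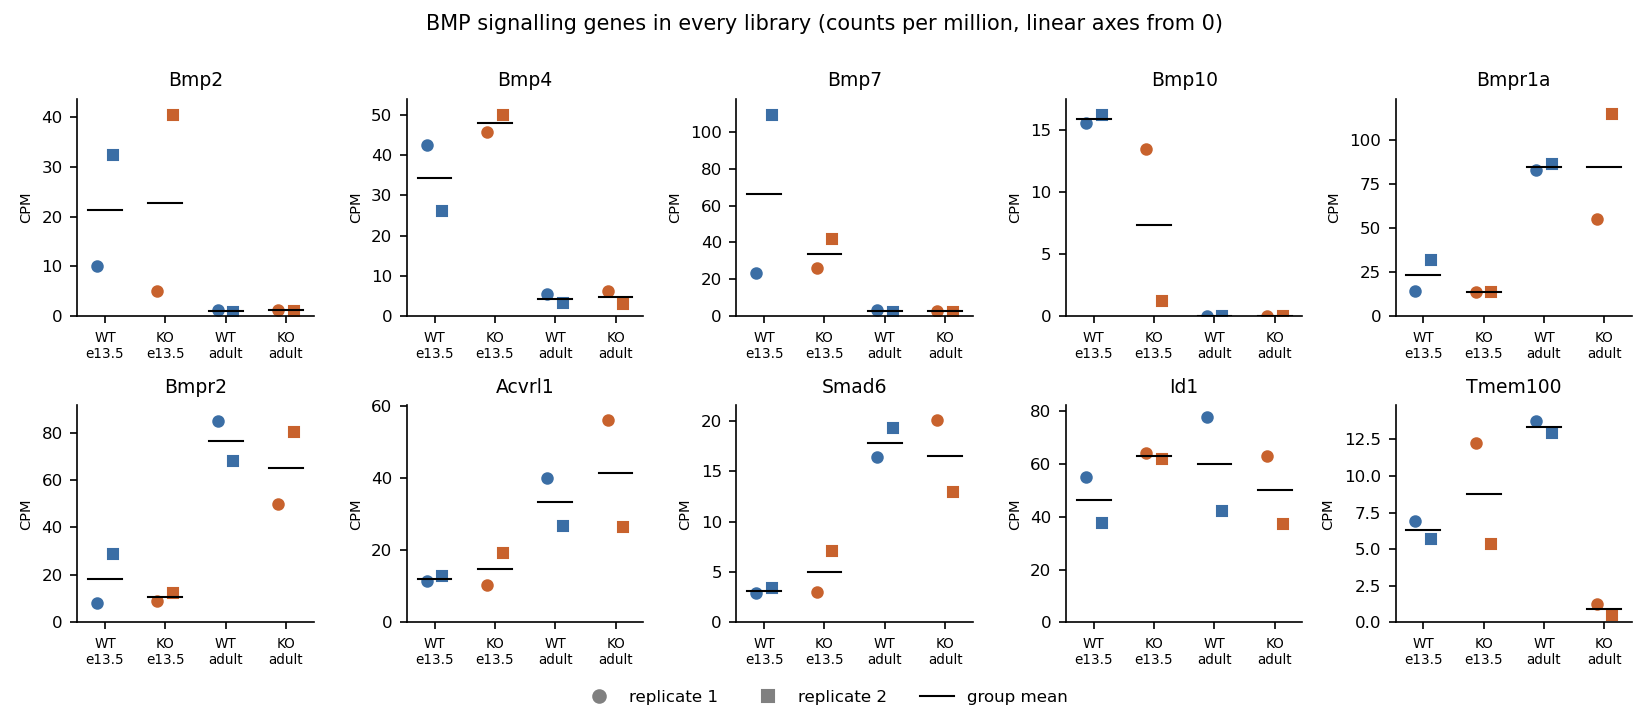
Level of each of the 10 genes (y axis, CPM, linear from 0, own scale per panel) in the 8 libraries by genotype and age (x axis), with circles for replicate 1, squares for replicate 2 and a line at the group mean. The ligand genes sit near 0 in adults, the receptor genes and Smad6 sit above their embryonic levels, and Tmem100 is near 0 only in the adult KO libraries.

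Bmp2 (ENSMUSG00000027358, chr2:133552159-133562885, GRCm38, plus strand) encodes a ligand needed for the atrioventricular cushions. It was at 10 and 32.5 CPM in WT and 5.0 and 40.4 CPM in KO at e13.5, against 1.22 and 0.895 CPM in WT adults and 1.25 and 1.06 CPM in KO adults. All embryonic libraries lay above all adult ones, although the embryonic replicates differed widely. Its log2 fold change with age was -4.31 ± 1.0 (SE, adjusted p = 0.00848) for WT and -4.29 ± 0.99 (adjusted p = 0.00813) for KO. The call was lost without WT adult replicate 2 in WT (adjusted p = 0.0612) and without either KO adult library in KO (up to 0.0749). In both genotypes the second embryonic replicate was the high one. Summed over 4 markers of the atrioventricular canal and cushion, the same libraries had 216 and 451 CPM in WT and 144 and 796 CPM in KO, and 38.0 to 51.3 CPM in adults. Postn and Sox9 carried that fall, while Cacna1g lay between 1.5 and 5.58 CPM in embryos and between 15 and 26.9 CPM in adults, and Twist1 between 0.737 and 1.74 CPM and between 0.895 and 3.10 CPM; the part of these cells in the Bmp2 values was not tested.

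Bmp4 (ENSMUSG00000021835, chr14:46383520-46390669, minus strand), a ligand of the early heart fields and outflow tract, was at 42.6 and 26.1 CPM in WT and 45.8 and 50.1 CPM in KO embryos. Adults had 5.53 and 3.17 CPM in WT and 6.26 and 2.98 CPM in KO. The difference was -2.98 ± 0.55 on the log2 scale for WT (adjusted p = 0.00303) and -3.37 ± 0.56 for KO (adjusted p = 0.00165), without overlap between ages. Bmp4 shares 89 exon bases with Gm15217 on the other strand, and whether the counting used strand is not stated.

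Bmp7 (ENSMUSG00000008999, chr2:172868012-172940321, minus strand), whose product pairs with BMP2 or BMP4 in mixed dimers, was at 23.4 and 109 CPM in WT embryos and 26.0 and 41.9 CPM in KO embryos. Its adult levels were 3.20 and 2.20 CPM in WT and 2.57 and 2.39 CPM in KO. The log2 values of its fall were -4.61 ± 0.76 for WT (adjusted p = 0.00171) and -3.77 ± 0.73 for KO (adjusted p = 0.00349). As for Bmp2, the second embryonic replicate of each genotype had the higher level.

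Bmp10 (ENSMUSG00000030046, chr6:87428994-87437677, plus strand), the growth factor of trabecular myocardium, was at 15.6 and 16.2 CPM in WT embryos. KO embryos had 13.4 and 1.19 CPM, from 215 and 30 counts, and each of the 4 adult libraries had 0 counts. Bmp10 thus passed the filter on low counts through its embryonic libraries alone, and the test could call it only as lower in adults. Against a floor of 3 counts over both adult libraries, the level was at least 168-fold lower in WT adults (adjusted p = 0.00343) and at least 73.8-fold lower in KO adults (adjusted p = 0.00532). These bounds depended on single libraries: that of KO was 12-fold without embryonic replicate 1, 135.6-fold without embryonic replicate 2 and 36.8-fold or 37.0-fold without 1 adult library, and that of WT 76.9-fold or 90.9-fold without 1 adult library. Atrial muscle is the adult source of Bmp10. The 5 genes listed as its markers summed to 3586 to 17690 CPM at e13.5 and to 19.9 to 45.1 CPM in adults. The adult sum came mostly from Nppa. Myl4, Myl7 and Nppa held most of the embryonic sum, at 5934, 4433 and 6947 CPM in WT replicate 1. Whether these genes mark atrial muscle alone at e13.5 was not tested. The part of atrial tissue in the fall of Bmp10 was not tested.

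Levels of different ligands were set side by side per kilobase of merged exon. The 14 ligand genes examined summed to 46.3 ± 15.8 CPM per kb in WT and 41.6 ± 11.5 CPM per kb in KO embryos (mean ± SD, n = 2), and to 8.49 ± 0.929 and 10.04 ± 4.21 CPM per kb in adults. Bmp4 held 37.1% of this sum in WT and 52.9% in KO embryos, Bmp7 31.9% and 20.2%, and Bmp10 8.07% and 4.74%. These means hide a wide spread: in WT embryos Bmp4 held 54.0% and 20.2% and Bmp7 16.6% and 47.3%, so the leading ligand gene differed between the replicates, while Bmp4 led in both KO libraries at 60.9% and 44.8%. Bmp10 held 8.96% and 0.532% in the KO replicates. Bmp2 held between 4.21% and 22.9% in the embryonic libraries. In adults Bmp6, which is not one of the 10 genes, held 61.4% in WT and 65.7% in KO, after 0.519% and 0.713% in embryos. Bmp4 kept 22.4% and 20.1% of the smaller adult sum, and Bmp7 and Bmp2 together came after it. The ligand mix thus passed from Bmp4 and Bmp7 to Bmp6 between the ages, in all 4 adult libraries.

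**Figure D2:**
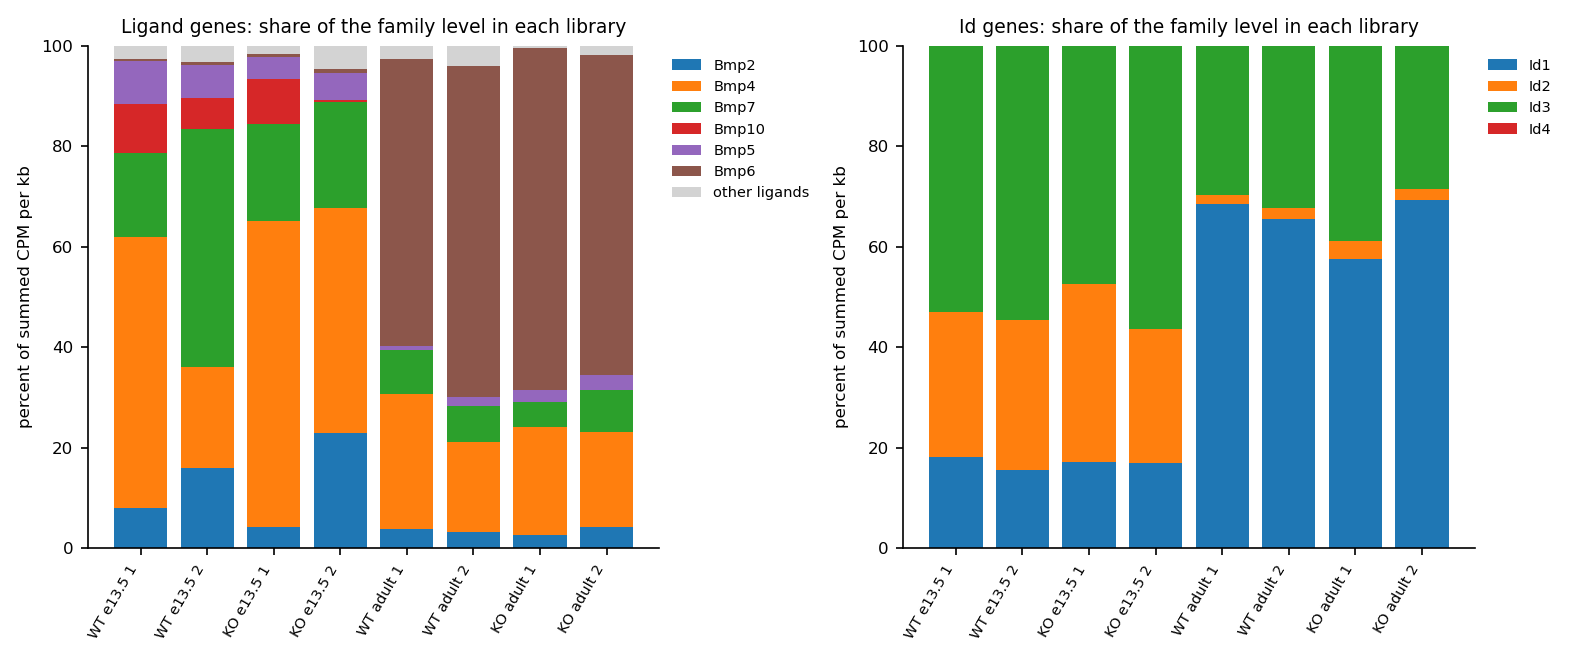
Share of each gene in the summed level of the ligand genes (left) and of the Id genes (right), as percent of CPM per kb of exon (y axis), one bar per library (x axis). Bmp6 fills 57.1% to 67.9% of the ligand bar in adults and under 1% in embryos, and Id1 fills 57.5% to 69.3% of the Id bar in adults against 15.6% to 18.0% in embryos.

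The receptor genes moved the other way. Bmpr1a (ENSMUSG00000021796, chr14:34410734-34503341, minus strand), the main type I receptor of heart muscle, was at 14.3 and 32.1 CPM in WT and 13.8 and 13.8 CPM in KO embryos. Adult libraries had 83.2 and 86.2 CPM in WT and 55.1 and 115 CPM in KO. The rise measured 1.87 ± 0.53 on the log2 scale for WT (adjusted p = 0.0204) and 2.62 ± 0.54 for KO (adjusted p = 0.00482). Bmpr2 (ENSMUSG00000067336, chr1:59763400-59879014, plus strand), the type II receptor mutated in heritable pulmonary arterial hypertension, was at 8.30 and 28.6 CPM in WT and 8.88 and 12.2 CPM in KO embryos. In adults it reached 85.1 and 68.0 CPM in WT and 49.8 and 80.2 CPM in KO, log2 rises of 2.05 ± 0.60 for WT (adjusted p = 0.0230) and 2.62 ± 0.61 for KO (adjusted p = 0.00838).

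Acvrl1 (ENSMUSG00000000530, chr15:101128522-101145336, plus strand), the endothelial receptor for BMP9 and BMP10, was at 11.5 and 12.8 CPM in WT and 10.4 and 19.4 CPM in KO embryos. It stood at 40.1 and 26.8 CPM in WT adults and 56.2 and 26.6 CPM in KO adults. Its rise only just passed the threshold, with log2 values of 1.46 ± 0.52 for WT (adjusted p = 0.0498) and 1.48 ± 0.52 for KO (adjusted p = 0.0458). Under 8 of 19 alternatives in each genotype, upper quartile scaling among them, the call was lost (adjusted p up to 0.272 in WT and 0.299 in KO). The first replicate was the higher one in both adult groups, and the 11 endothelial markers summed to 1375 and 1034 CPM in WT and 2273 and 1218 CPM in KO adults, in the same order; the part of endothelial cells was not tested. Bmpr1a shares 290 exon bases with the antisense gene Gm17110 and Acvrl1 127 with Gm16031.

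Within the type I family of 4 genes, Bmpr1a held 38.8% of the summed CPM per kb in WT and 25.3% in KO embryos, and 56.1% and 50.2% in adults. Its share in single libraries was 29.4% and 48.1% in WT embryos, and 34.0% and 66.5% in KO adults, where Acvrl1 at 51.6% exceeded it in replicate 1. The family sum went from 9.08 ± 2.03 to 23.9 ± 2.07 CPM per kb in WT and from 8.68 ± 1.30 to 26.4 ± 1.18 CPM per kb in KO. Among the 3 type II genes, Bmpr2 held 22.6% and 21.7% in embryos and 49.1% and 48.4% in adults. Its share varied little between replicates, from 21.5% to 22.7% over the embryonic and from 46.1% to 51.9% over the adult libraries.

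Smad6 (ENSMUSG00000036867, chr9:63953076-64022059, minus strand), the feedback inhibitor, was at 2.90 and 3.41 CPM in WT and 3.0 and 7.08 CPM in KO embryos. Adult levels were 16.4 and 19.3 CPM in WT and 20.1 and 12.9 CPM in KO, above every embryonic library. On the log2 scale WT gained 2.50 ± 0.55 (adjusted p = 0.00703) and KO 1.70 ± 0.54 (adjusted p = 0.0299). Relative to Smad7, the other inhibitory SMAD, Smad6 held 28.5% and 38.6% of their summed CPM per kb in WT and KO embryos, and 52.4% and 53.6% in adults.

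Id1 (ENSMUSG00000042745, chr2:152736251-152737410, plus strand), a direct BMP target that keeps helix-loop-helix factors from binding DNA, was at 55.0 and 37.6 CPM in WT and 64.3 and 61.7 CPM in KO embryos. Adults had 77.8 and 42.1 CPM in WT and 62.9 and 37.2 CPM in KO, so the ages overlapped in both genotypes. The log2 differences, 0.37 ± 0.47 for WT (adjusted p = 0.550) and -0.33 ± 0.47 for KO (adjusted p = 0.585), were smaller than their errors. Of the other 3 Id genes, Id2 and Id3 fell in both genotypes and Id4 did not pass (adjusted p = 0.440 in WT and 0.126 in KO). Id2 went from 168 ± 24.8 to 3.51 ± 0.877 CPM in WT and Id3 from 226 ± 32.3 to 42.1 ± 14.3 CPM. Id1 thereby came to hold 67.0% of the summed Id level per kb in WT adults and 63.4% in KO adults, after 16.8% and 17.0% in embryos.

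**Figure D3:**
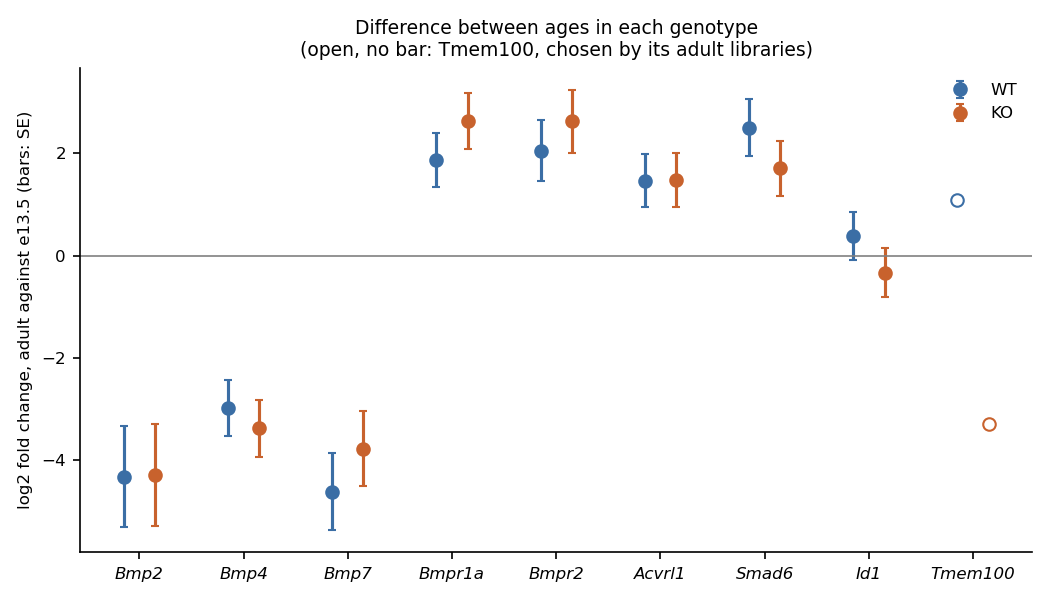
Log2 fold change of adult against e13.5 (y axis) for 9 of the genes (x axis), in WT (blue) and KO (orange), with bars of 1 SE; open points without a bar are Tmem100, and Bmp10, at 0 counts in adults, is not drawn. The 3 ligand genes drawn lie below -2.9, the 3 receptor genes and Smad6 above 1.4, and Id1 spans 0.

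Tmem100 (ENSMUSG00000069763, chr11:90030348-90036508, plus strand) was at 6.91 and 5.68 CPM in WT and 12.3 and 5.34 CPM in KO embryos. In WT adults it was at 13.7 and 13 CPM, from 236 and 188 counts, and in KO adults at 1.25 and 0.530 CPM, from 19 and 8 counts. With age its mean level was higher in WT and lower in KO (log2 fold changes of 1.08 and -3.29, no test). Per kilobase it was number 4 of the 10 genes in WT adults, at 7.55 ± 0.316 CPM per kb beside 7.84 ± 2.21 for its receptor gene Acvrl1, from which it did not differ beyond their spread. In KO adults it was number 8 at 0.504 ± 0.289 CPM per kb, between Bmp7 and Bmp2 and overlapping both. In embryos the groups overlapped, and the log2 difference of KO from WT was 0.48 ± 0.57 (95% interval -0.79 to 1.75, adjusted p = 1).

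The adult Tmem100 values were set beside the cells it is known from. Of the 11 endothelial markers, 2 (Kdr and Emcn) were higher in both KO adult libraries than in both WT ones and 0 were lower, and none was at 0. In KO replicate 1, 10 of the 11 lay above both WT adult libraries and 0 below both. In KO replicate 2, 2 lay above both and 3 below both: Vwf, which encodes von Willebrand factor, at 69.5 CPM beside 132 and 129 CPM in WT, Egfl7 at 66.2 beside 83.9 and 71.4 CPM, and Esam at 49.8 beside 66.1 and 54.1 CPM. Pecam1 was at 170 and 129 CPM in WT and 311 and 153 CPM in KO adults, and Cdh5, the cadherin of endothelial junctions, at 274 and 180 CPM in WT and 422 and 195 CPM in KO. The part of endothelial cells in the adult Tmem100 values was not tested. Of 6 epicardial markers, 4 were lower in both KO adult libraries (summed 36.4 and 13.1 CPM in KO, 35.7 and 46.6 CPM in WT); their part was not tested. The 6 markers of lung, an organ rich in Tmem100, summed to at most 0.349 CPM in any adult library, with 5 of the 6 at 0 in both KO adult libraries. Liver markers were present in the second adult replicates. The 5 of them summed to 0.408 and 47.2 CPM in WT and 1.12 and 72.0 CPM in KO adults. Alb made up most of it, at 0 and 38.8 CPM in WT and 0 and 56.2 CPM in KO. The part of liver RNA in adult values was not tested.

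**Figure D4:**
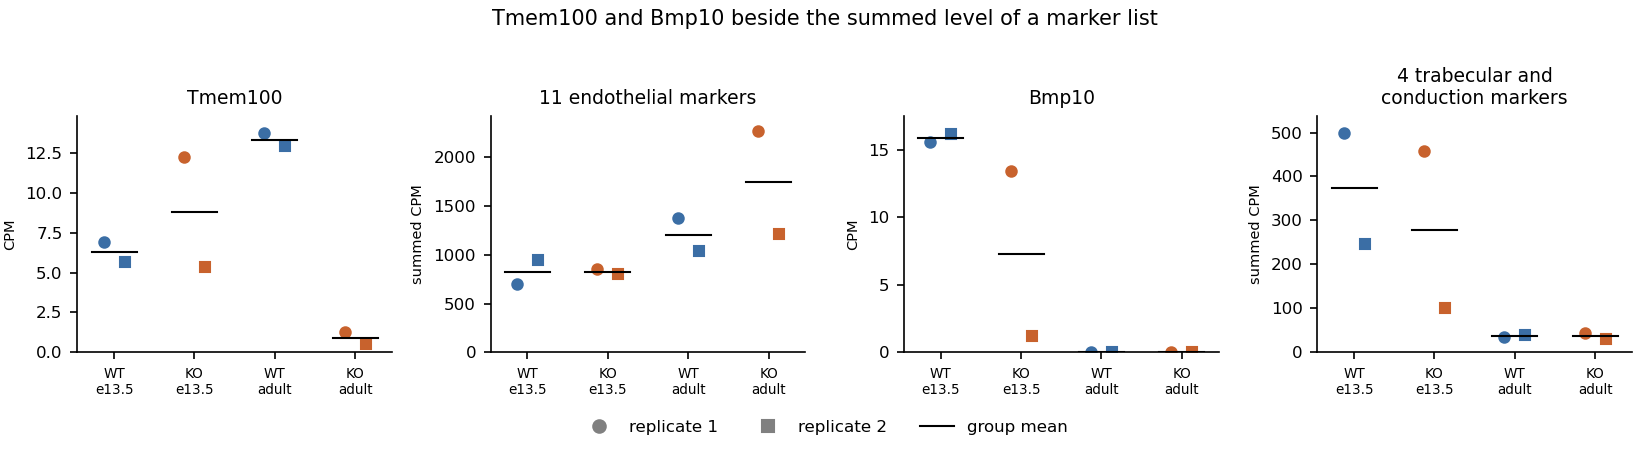
Tmem100 and Bmp10 (CPM) and the summed CPM of 11 endothelial and of 4 trabecular and conduction markers (y axes, from 0) in the 8 libraries by group (x axis), with circles for replicate 1, squares for replicate 2 and a line at the group mean. The adult KO libraries are lowest for Tmem100 but not for endothelial markers, and KO replicate 2 at e13.5 is lowest of the embryonic libraries for Bmp10 and for the summed trabecular markers.

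At e13.5, KO was compared with WT to ask whether BMP genes differ in the embryonic heart of the genotype LncSync-/-. Of the 10 members, 0 passed the threshold in edgeR, with 0 at an unadjusted p under 0.05 and 0 by DESeq2. Among all 16623 genes 0.0722% passed (0.0602% higher and 0.012% lower in KO). Bmp4 and Id1 were higher in both KO libraries than in both WT ones, with log2 differences of 0.48 ± 0.51 and 0.45 ± 0.47 (adjusted p = 1 for each). Bmp10 and Bmpr1a were lower in both KO libraries, with -1.13 ± 0.95 and -0.75 ± 0.52 (adjusted p = 1 for each). Thus the libraries of the genotypes did not overlap for 4 of the 10 members, against 15.4% of all genes. For Bmpr1a both KO libraries, at 13.8 CPM, lay just below WT replicate 1 at 14.3 CPM, while WT replicate 2 had 32.1 CPM. With single libraries left out, the Bmpr1a difference ranged from -1.07 to -0.023.

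The Bmp10 difference rested on 1 library. KO replicate 1 had 13.4 CPM, close to the 15.6 and 16.2 CPM of WT, and KO replicate 2 had 1.19 CPM. The 95% interval of the log2 difference ran from -3.26 to 1.01. The value was -0.23 without KO replicate 2 and -3.74 without KO replicate 1. Summed over 4 trabecular and conduction markers, WT had 499 and 247 CPM and KO 457 and 101 CPM, so KO replicate 2 was lowest there too. Cited1 and Gja5 made up most of that sum. Cited1, a gene of trabecular and compact ventricle, was at 300.3 and 138 CPM in WT and 332 and 48.2 CPM in KO, and Gja5, the connexin of trabeculae and conduction fibres, at 191 and 95.5 CPM and 120.1 and 46.5 CPM. The other markers, Irx3 at 0.553 and 4.58 CPM in WT and 0.250 and 0.475 CPM in KO, and Slit3 at 6.87 and 8.99 CPM and 4.56 and 5.74 CPM, were lowest in KO replicate 1 instead. The 5 atrial markers had 17690 and 4694 CPM in WT and 13397 and 3586 CPM in KO, and the WT library with the lower sum had 16.2 CPM of Bmp10. The part of trabecular or atrial tissue was not tested.

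For the other members the genotypes overlapped at e13.5. Their log2 differences were 0.10 ± 0.84 for Bmp2, -0.97 ± 0.65 for Bmp7, -0.81 ± 0.58 for Bmpr2, 0.29 ± 0.51 for Acvrl1 and 0.68 ± 0.53 for Smad6 (adjusted p = 1 for each). The widest of these intervals, that of Bmp2, reached from -1.79 to 1.99, so differences of that size could not be seen in this fit with 2 libraries per group. With the replicate number at e13.5 taken into the fit, an alternative added after the data were seen, the Bmp2 value was -0.31 ± 0.38. WT replicate 2 carried the Bmp7 and Bmpr2 values, which became 0.55 and 0.37 without it.

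In adults, Bmp10 had no counts in either genotype and Tmem100 had been chosen by this comparison, which left 8 members to test. None passed in edgeR, with 0 at an unadjusted p under 0.05 and 0 by DESeq2, and 0.0481% of all genes passed (0.0421% higher and 0.00602% lower in KO). The libraries of the genotypes overlapped for all 8, against 27.9% of all genes without overlap. Receptor genes differed by 0.00 ± 0.51 (Bmpr1a), -0.24 ± 0.57 (Bmpr2) and 0.31 ± 0.51 (Acvrl1) on the log2 scale, with 95% intervals of -1.14 to 1.14, -1.52 to 1.05 and -0.84 to 1.45. Ligand genes differed by 0.12 ± 0.95 (Bmp2), 0.08 ± 0.52 (Bmp4) and -0.13 ± 0.68 (Bmp7), Smad6 by -0.11 ± 0.52 and Id1 by -0.26 ± 0.47. The signs of these adult differences changed when single libraries were left out, for Acvrl1 too, at -0.33 without KO replicate 1. The interaction of genotype and age, which asks whether the genotype difference itself differs between ages, passed for 0 of the 8 members and for 0% of all genes, with 0 members at an unadjusted p under 0.05 and 0 by DESeq2.

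**Figure D5:**
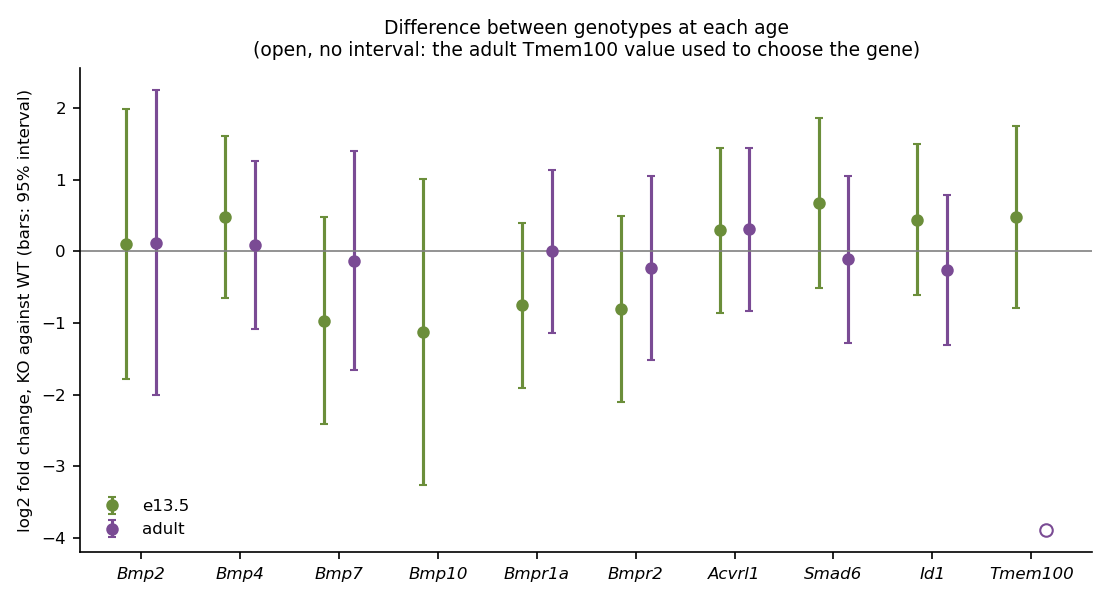
Log2 fold change of KO against WT (y axis) for the 10 genes (x axis) at e13.5 (green) and in adults (purple), with 95% intervals; the open point is the adult value of Tmem100, and Bmp10 has no adult value. All 18 intervals drawn include 0.

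Per kilobase, Id1 stood first of the 10 genes in every group, from 39.9 ± 10.6 CPM per kb in WT embryos to 54.3 ± 1.54 in KO embryos. In WT embryos Bmp7 (16.5 ± 15.1) and Bmp4 (15.3 ± 5.21) followed and did not differ beyond their spread. Bmp2, Bmpr1a, Tmem100 and Bmp10 came next at 5.97 to 3.54 CPM per kb, each overlapping its neighbour in that order, then Acvrl1 at 2.85, Bmpr2 at 1.0 and Smad6 at 0.985, the last pair overlapping. In WT adults the order was Id1, Bmpr1a at 13.3 ± 0.338, Acvrl1 and Tmem100, Smad6 at 5.57, Bmpr2 at 4.26, Bmp4 at 1.93, Bmp7 at 0.673, Bmp2 at 0.298 and Bmp10 at 0. Receptor genes therefore stood below most ligand genes in embryos and above them in adults. In KO adults the receptor genes and Smad6 kept those places, with overlaps from Bmpr1a down to Bmp4.

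The wider pathway was followed in 54 other genes chosen by role, of which 47 could be tested. With age 9 were higher and 12 lower in each genotype, 44.7% of the list, close to the 38.9% and 41.4% of all genes. Their median log2 fold change was -0.12 in WT and -0.14 in KO. Gdf5 and Grem1, among the lower ones, had no counts in any adult library. They passed the filter through embryonic libraries alone and could be called only as lower. Fewer of the list passed as lower in WT without either WT adult library, and in KO without KO adult replicate 2. The same held over all genes. More of the list passed as higher without embryonic replicate 2 of the genotype compared. Over all genes that count also rose in WT but hardly moved in KO. By role, 50% of ligands, 37.5% of receptors and co-receptors and 25% of signal transducers passed in each genotype. The share was 80% for inhibitors inside the cell or at the receptor. It was 22.2% for secreted antagonists and modulators and 53.8% for target genes. Of the 8 further ligand genes tested, 1 rose and 3 fell in each genotype. Bmp6, the ligand that controls hepcidin and iron balance, rose from 0.645 and 1.27 to 20.4 and 20.1 CPM in WT and from 0.688 and 1.74 to 34.5 and 17.5 CPM in KO (log2 4.38 ± 0.67, adjusted p = 0.00119, and 4.39 ± 0.67, adjusted p = 0.00111). Bmp5, which acts with Bmp7 in the cushions, fell, with -4.79 ± 0.65 in WT and -2.90 ± 0.59 in KO. Gdf5, a ligand of joint formation, had means of 0.954 CPM (WT) and 0.521 CPM (KO) in embryos and 0 in adults, at least 10.1-fold and 5.25-fold lower, and down to 4.62-fold without WT adult replicate 1 and 2.52-fold without KO embryonic replicate 2. Bmp3 passed in WT alone and Bmp15 in KO alone, both at means under 1.4 CPM in every group, and the differences between the genotypes did not pass.

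Of 8 further receptor and co-receptor genes, 3 rose in each genotype and 0 fell, and all 3 encode repulsive guidance molecules, membrane-anchored BMP co-receptors. Hjv, or hemojuvelin, a co-receptor for BMP6 known from muscle and liver, went from 1.71 and 1.89 to 216 and 218 CPM in WT and from 1.56 and 0.910 to 309 and 210 CPM in KO (log2 6.91 ± 0.55 and 7.73 ± 0.58). Rgma rose by 3.39 ± 0.60 and 3.85 ± 0.62, and Rgmb by 2.89 ± 0.52 and 3.05 ± 0.53. Among 4 signal transducers only Smad4, the common partner SMAD, passed, with 2.35 ± 0.40 in WT and 2.66 ± 0.41 in KO. Hjv and Bmp6 thus showed adult levels in every adult library above those of every embryonic one.

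Of 5 inhibitors inside the cell or at the receptor, 2 rose and 2 fell in each genotype. Smurf1 and Smurf2, ubiquitin ligases that mark SMADs and receptors for breakdown, rose by 3.37 ± 0.48 and 2.40 ± 0.44 in WT and by 3.01 ± 0.47 and 3.30 ± 0.46 in KO. Bambi, a decoy receptor without a kinase, fell from 199 to 16.8 CPM in WT and from 174 to 23.9 CPM in KO (log2 -3.56 ± 0.49 and -2.86 ± 0.48). Fkbp1a, which encodes FKBP12, a protein that holds type I receptors silent and also binds the ryanodine receptor, fell too (-2.72 ± 0.54 and -2.50 ± 0.54).

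Of 9 secreted antagonists and modulators tested, 1 rose and 1 fell. Bmp1, which encodes a protease that cuts the antagonist chordin and not a ligand, rose by 1.86 ± 0.43 in WT and 1.48 ± 0.43 in KO. Grem1, the antagonist gremlin, had means of 0.885 CPM (WT) and 1.02 CPM (KO) in embryos and 0 in all adult libraries, at least 9.35-fold and 10.3-fold lower, and down to 4.28-fold without WT adult replicate 1 and 5.15-fold without KO adult replicate 1. Of 13 target genes, 1 rose and 6 fell in each genotype. The log2 falls in WT and KO were -5.58 ± 0.67 and -5.51 ± 0.67 for Id2, -2.43 ± 0.56 and -2.73 ± 0.56 for Id3, and -3.18 ± 0.75 and -5.93 ± 0.88 for Msx2, a homeobox gene of the cushions. Tbx2, a repressor of chamber genes in the atrioventricular canal, rose by 4.52 ± 1.14 and 3.17 ± 1.05, from 0.339 and 1.11 CPM to 8.20 and 10.4 CPM. Hey1, a Notch and BMP target, fell as well (-2.08 ± 0.53 and -2.25 ± 0.54).

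Between genotypes none of the 47 listed genes passed at e13.5 (0 by DESeq2, 2 at an unadjusted p under 0.05), and none of 45 in adults (0 by DESeq2 and 0 at an unadjusted p under 0.05). The listed medians were -0.11 at e13.5 and -0.05 in adults, beside -0.07 and 0.01 over all genes; with 3 genes at 0 in 1 adult group set to their bound, the adult median was 0. The 2 at e13.5, named after their values were seen, were Bmp3 (log2 -3.44, unadjusted p = 0.0133) and Tll1 (-4.36, unadjusted p = 0.00688), both with an adjusted p of 1 and means of at most 1.38 CPM.

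The genes whose pattern over the 8 libraries was most like that of Bmp10, by Pearson r of log2 CPM among 10357 tested genes with a proper name and a mean of at least 5 CPM, were Lins1 (r = 0.993), Dph1 (0.990), Gtsf1 (0.987), Cldn4 (0.986) and Cldn6 (0.980). Cldn4 and Cldn6 encode claudins of epithelial tight junctions. Cldn4 was at 16.7 and 18.4 CPM in WT embryos and 19.1 and 4.67 CPM in KO embryos, and at 0 in adults, so it shared with Bmp10 the low value of KO replicate 2. For Tmem100 they were Bcl2l1 (0.965), Pttg1 (0.928), Ciart (0.913), Eif2a (0.900) and Angptl7 (0.848). Bcl2l1, which encodes the survival protein BCL-XL, was at 67.4 and 61.0 CPM in WT adults and 33.0 and 22.7 CPM in KO adults. These correlations are descriptions over libraries that share age, depth and scaling, and for Tmem100 they take in the adult difference by which it was chosen.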

How the data were processed

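Expected counts (estimated counts per gene) of 8 libraries were deposited, made with RSEM on mm10 per the submitters' processing notes. Their version, aligner and annotation: not given in the sources used here. The values are whole numbers with differing totals and were read as unscaled counts, although the name given to the table speaks of normalised input. Symbols, positions and merged exon lengths came from GENCODE vM21 (GRCm38), which matched 51633 of 51826 identifiers. Every column was used.

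The analysis ran on edgeR 4.0.16 under R 4.3.3: filterByExpr kept 16623 genes, libraries were scaled by TMM (0.770 to 1.44), and a quasi-likelihood model with 4 group means was fitted to all 8 libraries. Two-sided p-values were adjusted by the Benjamini-Hochberg method over all genes tested, with a threshold of 0.05. Standard errors are the log2 fold change divided by the root of F, and intervals are 95%. Correlations used log2 CPM with a prior count of 2. BLAST 2.17.0 found another gene with at least 95% identity over at least 50% of a transcript for 0 of the 10 members. The alternatives were other filters and scalings, DESeq2 1.42.0, only the libraries of a comparison, a replicate block and each library left out. The fit was also run on counts simulated for the age comparison in WT, drawn independently for each library. Its outcome is not reported here. The members, the gene lists and the rule for naming genes were chosen with earlier results of these data known: all 10 members, listed genes that passed between genotypes, up to 4 of smallest p per role between ages, and the 5 genes most alike to Bmp10 and to Tmem100.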

Additional observations from a re-analysis of the deposited data

How the results depend on the processing

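Of the members tested between genotypes (10 at e13.5, and 8 in adults and in the interaction, without Tmem100 and Bmp10), none passed under the alternatives run. With age Bmp4, Bmp7 and Bmp10 passed under all 19 alternatives in both genotypes, as did Smad6 in WT and Bmpr1a in KO. Calls were lost for Acvrl1 (8 of 19 in each genotype), Smad6 in KO (5) and Bmpr1a in WT (3). They were also lost for Bmpr2 in WT (3) and KO (1), and for Bmp2 in WT (1) and KO (2). The cause of the lost calls was not tested. All but 5 of these losses came from leaving out libraries, the others being Acvrl1 under upper quartile scaling and the filter of 5 CPM in 2 libraries in both genotypes, and in KO when only the 4 libraries of the comparison were fitted.

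Leaving out each library in turn gave 1 to 4 members higher with age in WT and 2 to 4 in KO, and 3 to 4 lower in each. For the wider list it gave 8 to 15 higher and 4 to 12 lower in WT, and 7 to 14 higher and 5 to 13 lower in KO, the most higher ones without embryonic replicate 2 of that genotype. Without replicate 2 at e13.5 in both genotypes, an alternative added after the data were seen, 18 were higher in WT and 16 in KO.

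Genotype differences at e13.5 turned sign when a library was left out for Acvrl1 (-0.22 to 0.66), Bmp2 (-2.07 to 1.18), Bmp7 (-1.55 to 0.55), Bmpr2 (-1.30 to 0.37), Smad6 (-0.063 to 1.16) and Tmem100 (-0.24 to 0.97). In adults this held for Acvrl1 (-0.33 to 0.75), Bmp2 (-0.090 to 0.37), Bmp4 (-0.55 to 0.55), Bmp7 (-0.38 to 0.17), Bmpr1a (-0.62 to 0.44), Bmpr2 (-0.62 to 0.066), Smad6 (-0.47 to 0.17) and Id1 (-0.69 to 0.25). The Id1 change with age ranged from -0.13 to 0.81 in WT and from -0.75 to 0.0100 in KO.

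Replicate numbers are shared by the groups, but with 2 pairs per comparison they count only as numbers. Across 16623 genes the deviations of same-numbered libraries correlated with r = 0.552 at e13.5 and 0.307 in adults. With the number as a replicate block, Bmp2 at e13.5 was -0.080 and Bmpr1a in adults -0.093, both against slightly positive values without it. A replicate block at e13.5 alone, added after the data were seen, put Bmp2 at -0.31 ± 0.38 and changed no call of a member. It raised the listed genes higher with age from 9 to 19 in WT and from 9 to 20 in KO. Over all genes it raised them from 2954 to 4776 in WT and from 3402 to 5214 in KO.

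Median of ratios scaling moved the median over all genes from -0.07 to 0.05 at e13.5 and from -0.15 to -0.26 with age in KO, and upper quartile scaling moved it to -0.39 with age in WT and -0.35 in KO; no member changed sign under either. Of the 5 genes most like Bmp10, 0 stayed among the 5 by Spearman rank correlation and 1 by deviations from the mean of each age; for Tmem100 2 and 3 stayed.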
